A study of Mus musculus with 12 samples.

Results

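Arid5b, Fbxo2 and 9530080O11Rik are 3 mouse genes that were chosen because each has a probe that read lower in Naglu-null than in heterozygous neurons in all 3 pairs of the medial entorhinal cortex (MEC). They are 3 of 27566 genes and transcripts on the array and carry 11 of the 41174 gene probes: 6 for Arid5b, 2 for 9530080O11Rik and 3 for Fbxo2. Neurons were laser captured from the MEC and the adjacent lateral entorhinal cortex (LEC) of female C57BL/6 littermates aged 2 months, 500 per region, on Nissl-stained sections of 12 µm. Mutants were Naglu-/-, a model of Sanfilippo syndrome type B, and lack alpha-N-acetylglucosaminidase, the lysosomal enzyme that removes the terminal N-acetylglucosamine of heparan sulfate. Controls were Naglu+/-, so every mouse carried at least 1 disrupted allele and no wild-type mouse was compared. RNA of a mutant and a control littermate was hybridised together on 2 Agilent arrays, with the dyes exchanged between them, for 3 pairs per region and 12 arrays in all.

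Arid5b encodes a DNA-binding protein with an AT-rich interaction domain, which acts with the histone demethylase Phf2 and is known from adipose tissue, liver and cartilage. Fbxo2 encodes a brain-enriched F-box protein. F-box proteins are the substrate-recognition subunits of SCF ubiquitin ligases, in which Skp1 joins the F-box protein to the scaffold Cul1 and to the RING subunit Rbx1. Fbxo2 binds high-mannose N-glycans on proteins returned from the endoplasmic reticulum, and so directs misfolded glycoproteins to the proteasome. 9530080O11Rik is annotated by RefSeq as a long non-coding RNA, and no role is given to it here.

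The 3 genes were grouped by their ratio alone, so their RefSeq promoter sequences (build GRCm38.p6, 250 bases before to 50 bases after the annotated start, 5′ to 3′ on the gene's strand) are printed to show what the starts share. Capitals mark matches, on either strand, to the CCAAT box (CCAAT), the GC box (GGGCGG), the TATA box (TATAAA), the E-box (CACGTG) and the cyclic AMP element (TGACGTCA). Arid5b lies at chr10:68278677-68278976 on the minus strand, Fbxo2 at chr4:148160418-148160717 on the plus strand, and 9530080O11Rik has 2 annotated starts on the minus strand, at chr4:95967606-95967905 and chr4:95966986-95967285.
Arid5b: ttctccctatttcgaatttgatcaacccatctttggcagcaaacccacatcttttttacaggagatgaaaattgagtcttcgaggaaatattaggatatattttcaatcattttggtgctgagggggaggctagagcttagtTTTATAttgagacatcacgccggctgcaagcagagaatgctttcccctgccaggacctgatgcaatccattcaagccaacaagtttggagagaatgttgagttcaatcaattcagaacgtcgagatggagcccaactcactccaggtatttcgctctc
Fbxo2: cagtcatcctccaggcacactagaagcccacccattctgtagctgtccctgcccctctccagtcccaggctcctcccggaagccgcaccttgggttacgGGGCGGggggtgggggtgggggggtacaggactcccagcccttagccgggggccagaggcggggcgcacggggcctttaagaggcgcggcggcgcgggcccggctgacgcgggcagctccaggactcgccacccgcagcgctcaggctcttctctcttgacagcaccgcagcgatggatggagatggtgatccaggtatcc
9530080O11Rik, upstream start: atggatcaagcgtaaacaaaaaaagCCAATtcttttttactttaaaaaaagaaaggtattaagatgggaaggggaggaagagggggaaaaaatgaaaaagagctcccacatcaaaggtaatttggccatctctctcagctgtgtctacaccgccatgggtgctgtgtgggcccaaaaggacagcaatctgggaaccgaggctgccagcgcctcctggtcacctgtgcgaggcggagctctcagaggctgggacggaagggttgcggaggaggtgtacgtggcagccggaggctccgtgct
9530080O11Rik, downstream start: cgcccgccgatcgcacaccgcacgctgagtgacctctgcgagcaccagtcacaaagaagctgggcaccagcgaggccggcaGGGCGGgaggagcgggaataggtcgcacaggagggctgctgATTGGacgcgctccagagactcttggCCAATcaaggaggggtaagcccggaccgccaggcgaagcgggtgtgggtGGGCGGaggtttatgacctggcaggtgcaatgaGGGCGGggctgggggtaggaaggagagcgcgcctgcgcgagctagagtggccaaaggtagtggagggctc
The windows differ in composition. Arid5b had 43.3% G and C and 7 CpG, Fbxo2 had 69% and 21 CpG, and the 9530080O11Rik starts had 52.3% and 11 CpG upstream and 66.7% and 24 CpG downstream, against a median of 52.7% and 7 CpG over 32851 promoters. GGGCGG had 1 match before Fbxo2 and 3 before the downstream start of 9530080O11Rik, and 35.7% of all promoters hold it. CCAAT stood at both starts of 9530080O11Rik, and 37.4% of all promoters hold it. The Arid5b window held TATAAA on the other strand, from base 143 of the window, and 13.6% of promoters hold it on either strand. CACGTG, held by 7.15% of all promoters, and TGACGTCA, held by 1.79%, were not in these 4 windows. No searched motif was found at all 3 genes.

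Cy3 was the brighter dye, with a median spot signal per array of 67 to 92.5 and 48.2% to 67.9% of spots well above background, against 44.4 to 54.9 and 14.8% to 30.4% in Cy5. Naglu could not check the genotype labels: its probes were well above background in 12 and 0 of 24 readings, and the better one had a log2 ratio of 0.03 ± 0.07 in MEC and 0.01 ± 0.05 in LEC (SD, n = 3 pairs each). The deposited value table opposes the labelled dyes in replicate 2 of both regions, and 5 of its 6 LEC columns match another LEC array than the one named. The table's assignment was used, the direction of replicate 2 is not settled, and every ratio and every split into mutant and control below rests on it. Values with replicate 2 turned as labelled are given for the main results. MEC and LEC arrays were scanned on 2 different days, so region and scan day cannot be told apart. Of 11 microglia and macrophage marker genes on the array, 9 were measured. They summed to 1317 to 1606 intensity units in mutant and 887 to 975 in control MEC neurons. In LEC neurons they summed to 1112 to 1738 in mutants and 807 to 989 in controls. Their part in the ratios below was not tested. With replicate 2 turned as labelled, these ranges overlapped in both regions, at 887 to 1606 in mutant and 965 to 1317 in control MEC neurons, and at 881 to 1410 in mutant and 807 to 1738 in control LEC neurons. Gene by gene, in the table's direction, these markers had a median log2 ratio of 0.16 in MEC and 0.19 in LEC. In each region 1 of the 9 was under 0. The MEC means were highest for Lyz2 (1.78) and Ctss (0.78). They were −0.001 for Csf1r, 0.02 for C1qb and 0.04 for Cx3cr1, so the rise was not shared by all of the markers. Excitatory neuron markers, 4 of 5 measured, summed to 1588 to 2777 in mutant and 1661 to 2325 in control MEC neurons. Taken singly, all 4 had MEC mean log2 ratios under 0, from −0.29 for Camk2a to −0.006 for Nrgn, with a median of −0.10. Of all 10892 kept genes, 5758 were under 0 in MEC. In LEC 2 of the 4 were under 0, with a median of 0.005. The part of these markers in the ratios below was not tested either. Markers of blood, choroid plexus and meninges shifted between pairs, with mean log2 ratios of 0.85 in LEC replicate 2, −0.72 in LEC replicate 3 and −0.40 in MEC replicate 3. Astrocyte markers had 0.47 in LEC replicate 2 and −0.31 in LEC replicate 3, and inhibitory neuron markers 0.60 in LEC replicate 2.

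Probes entered the tests if at least 4 of the 6 readings from any region and genotype stood well above background, which left 12981. Of the 11 probes, 6 were kept: 2 of Arid5b, 1 of 9530080O11Rik and all 3 of Fbxo2. Each of these 6 was well above background in 6 of 6 readings of every region and genotype, and none of their spots was saturated. Since the MEC ratio chose the genes, MEC ratios are given as a description with no test. The same holds for mutant and control MEC values that do not overlap. The share of the 12981 kept probes separated in that way was not counted. Captured neurons were pooled per sample, so fewer cells of a type and less RNA per cell cannot be told apart.

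Arid5b, at its brightest probe A_51_P391524 (build mm8, chromosome 10, 67490950 to 67490967, minus strand), had log2 intensities of 8.96, 9.05 and 8.91 in mutant MEC neurons of pairs 1 to 3, against 9.42, 9.75 and 9.47 in control MEC neurons. All 3 mutant values lay below all 3 control values. The mutant over control log2 ratios were −0.46, −0.70 and −0.55, a mean of −0.57 ± 0.12 (SD, n = 3), so mutant neurons held 67.3% of the control signal. Every one of the 6 MEC arrays had a ratio under 0. In LEC neurons the same probe read 8.52, 8.77 and 8.77 in mutants, against 8.67, 8.71 and 8.82 in controls. The LEC groups overlapped, and the ratios of −0.14, 0.06 and −0.05 averaged −0.05 (95% interval −0.22 to 0.13; limma adjusted p = 0.9999).

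The other kept Arid5b probe, A_52_P432580 (chromosome 10, 67488278 to 67488337), was designed to another cDNA, BC082312. Its log2 intensities were 6.69, 6.86 and 6.76 in mutant MEC neurons, against 6.84, 6.83 and 7.27 in control MEC neurons. The groups overlapped, and the ratios of −0.16, 0.03 and −0.51 averaged −0.21 ± 0.28 (SD, n = 3). In LEC its ratios were −0.39, 0.42 and −0.29, with LEC replicate 2 opposite to the other pairs. They averaged −0.09 (95% interval −0.49 to 0.31, limma adjusted p = 0.9999). Turned as labelled, LEC replicate 2 had −0.42, and all 6 LEC arrays were under 0. The LEC mean was then −0.36 (limma adjusted p = 0.46), against −0.23 in MEC. The share of all kept probes so placed in LEC was not counted. With the scanner's own processed signals the MEC mean of this probe was −0.49. The remaining 4 Arid5b probes were not well above background in most readings. Their MEC means were 0.01 for A_51_P391532, −0.05 for A_52_P367621, −0.01 for A_51_P391525 and −0.02 for A_52_P660812, and their LEC means lay between −0.03 and 0.03. The 6 probes cover 93237 bases between the outermost pair, and A_52_P367621 is placed on 56807 bases of genome, so that it crosses an intron. The brightest probe is listed with a match of 18 bases, where 85.4% of located probes have a match of 60.

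Fbxo2, at its brightest probe A_52_P580912 (chromosome 4, 147009989 to 147010048, plus strand), had log2 intensities of 11.62, 11.77 and 11.76 in mutant MEC neurons, against 12.25, 12.26 and 12.84 in control MEC neurons. The mutant values lay close together, and the control values were all higher and more spread. The log2 ratios were −0.63, −0.50 and −1.08, a mean of −0.74 ± 0.31 (SD, n = 3), or 60.1% of the control signal, and all 6 arrays were under 0. The order of the pairs was not stable: with the scanner's processed signals, which differ in background and dye correction, the ratios were −0.61, −0.92 and −0.36, a mean of −0.63. The Cy5 over Cy3 log2 ratio of this spot averaged −0.28 over all arrays, at percentile 1.38 of the kept probes; the exchange of dyes cancels a constant dye difference in a pair's mean.

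In LEC neurons this Fbxo2 probe read 11.76, 11.66 and 11.48 in mutants, against 12.04, 11.35 and 11.76 in controls. The groups overlapped, and the ratios of −0.29, 0.31 and −0.29 averaged −0.09 (95% interval −0.45 to 0.27; limma adjusted p = 0.9999). Pair 2 was the one above 0, and without it the mean was −0.29. Turned as labelled, pair 2 had −0.31, so that all 3 LEC pairs were then under 0 (limma adjusted p = 0.76). The share of all kept probes so placed in LEC in that direction was not counted.

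The other Fbxo2 probes had MEC means near 0. A_51_P114472 (chromosome 4, 147009946 to 147010005) shares 17 genomic bases with the brightest probe, and its MEC ratios were −0.29, −0.10 and 0.19, a mean of −0.07 ± 0.24 (SD, n = 3). A_52_P36190 (chromosome 4, 147008713 to 147008844), which lies 1101 bases upstream of that probe and is placed on 132 bases, so that it crosses an intron, had MEC ratios of 0.05, 0.25 and −0.21, a mean of 0.03 ± 0.23 (SD, n = 3). In MEC the mutant and control values of both probes overlapped. Their LEC means were −0.11 (95% interval −0.34 to 0.11) for A_51_P114472 and −0.02 (95% interval −0.23 to 0.19) for A_52_P36190, and neither passed limma's test (adjusted p = 0.9999 for both).

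9530080O11Rik, at A_52_P176983 (chromosome 4, 95459310 to 95459369, minus strand), had log2 intensities of 9.16, 9.33 and 9.45 in mutant MEC neurons, against 9.70, 10.07 and 9.97 in control MEC neurons. No mutant value reached the lowest control value. The log2 ratios were −0.54, −0.74 and −0.52, a mean of −0.60 ± 0.12 (SD, n = 3), or 65.9% of the control signal, with all 6 arrays under 0. In LEC neurons it read 9.03, 8.91 and 8.93 in mutants, against 9.24, 8.93 and 8.99 in controls. The LEC ratios of −0.21, −0.02 and −0.05 were all under 0 and averaged −0.09 (95% interval −0.27 to 0.08; limma adjusted p = 0.9999). The other probe, A_51_P411045 (chromosome 4, 95452303 to 95452362), lies 6947 bases from the first and was well above background in none of its 24 readings, which leaves the transcript with 1 informative probe.

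**Figure D1:**
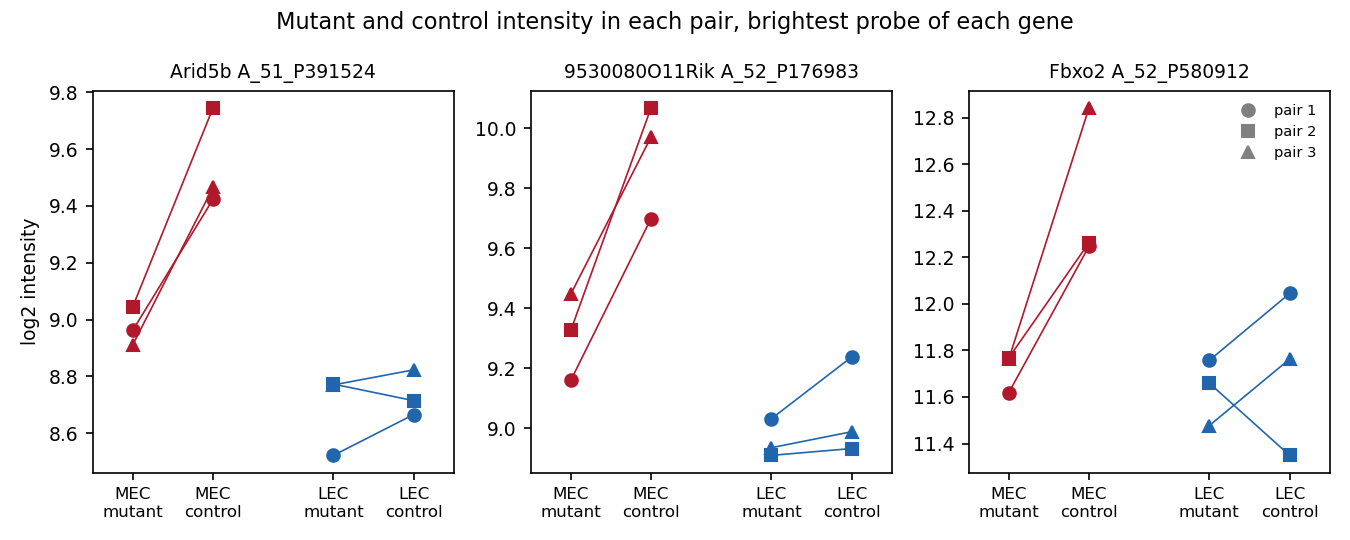
Log2 intensity (y axis) of the brightest probe of Arid5b, 9530080O11Rik and Fbxo2 in mutant and control neurons of each MEC pair (red) and LEC pair (blue); a line joins the samples of a pair, and the y axes differ and do not start at 0. In the table's direction, all 3 mutant points lie below all 3 control points in MEC for each gene, while in LEC the groups overlap. The genes were chosen on the MEC ratios, and the share of all kept probes so separated was not counted.

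**Figure D2:**
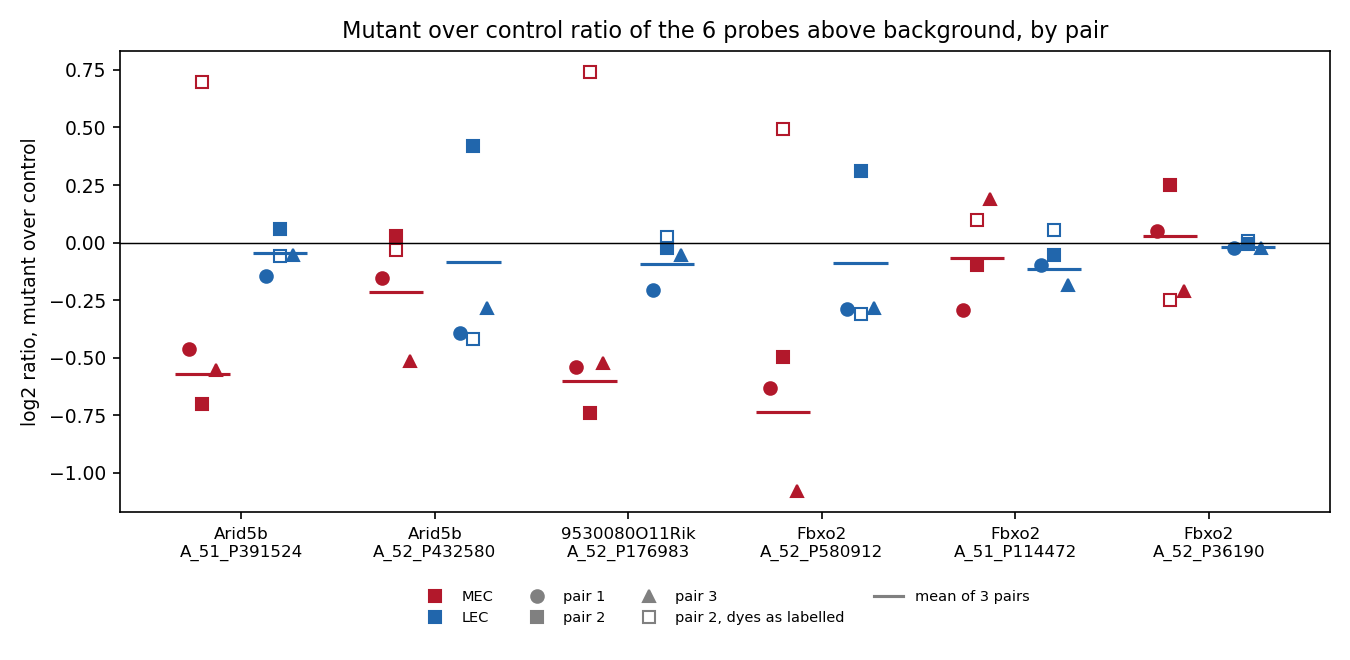
Log2 ratio of mutant over control (y axis) for the 6 kept probes, with 1 filled point per pair, a line at the mean of 3 pairs, and an open square for pair 2 turned as its dyes are labelled. The MEC means of the brightest probes are −0.57 for Arid5b, −0.60 for 9530080O11Rik and −0.74 for Fbxo2, and the open squares of those probes lie above 0.

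The direction of replicate 2 bears on each of these MEC means. Turned as labelled, the MEC ratio of pair 2 became 0.70 for Arid5b, 0.50 for Fbxo2 and 0.74 for 9530080O11Rik, so that 1 of 3 pairs was above 0, and the means became −0.11, −0.40 and −0.11. Among the other kept probes the MEC mean became −0.23 at Arid5b A_52_P432580, −0.003 at Fbxo2 A_51_P114472 and −0.14 at Fbxo2 A_52_P36190, the last with its sign turned. Without replicate 2 the means were −0.51, −0.86 and −0.53. In LEC the means with replicate 2 turned were −0.09 for Arid5b, −0.29 for Fbxo2 and −0.08 for 9530080O11Rik.

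Across all 12981 kept probes, limma's test on pair means called no probe in MEC (0%) and none in LEC (0%) at an adjusted p under 0.05; 135 probes in MEC (1.04%) and 199 in LEC (1.53%) had an unadjusted p under 0.05. The difference of the ratio between the regions was called for 0 probes (0%), with 71 (0.547%) under an unadjusted 0.05. So none of the 6 kept probes changed by limma's test in LEC. The genes were not chosen on LEC ratios. Both regions share the same estimate of the spread in this fit, so the choice on MEC ratios bears on the LEC intervals and p-values. A mutant value under control in all 3 pairs was found for 7.31% of kept probes in MEC and 7.09% in LEC, and on all 6 arrays for 0.871% in MEC and 0.755% in LEC. The 3 brightest probes meet both in MEC, as they were chosen to, and A_52_P176983 and the dimmer Fbxo2 probes meet the pair count in LEC.

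A mean MEC log2 ratio of −0.5 or less was read at 15 probes (0.116%), 3 of them the brightest probes of these genes, and in LEC at 4 probes (0.0308%). With replicate 2 turned as labelled, 64 probes (0.493%) were at −0.5 or less in MEC, 5 of them from the first 15 and none from these 3 genes. In the table's direction, the other 12 of the 15 fell into dissimilar patterns. Several rested on 1 pair, such as Ttr, the transthyretin of choroid plexus, with MEC ratios of 0.07, 0.02 and −1.62, and Isy1, a splicing factor, with −0.15, −0.03 and −1.69. Lars2, the mitochondrial leucyl-tRNA synthetase, had −1.02, −1.49 and 0.41. Only Arid5b, Fbxo2, 9530080O11Rik, Tfam and the transcript ENSMUST00000035012 were under 0 on all 6 MEC arrays among these 15. Tfam, which packages and transcribes mitochondrial DNA, had MEC ratios of −0.48, −0.62 and −0.56 and LEC ratios of −0.16, 0.16 and −0.17.

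**Figure D3:**
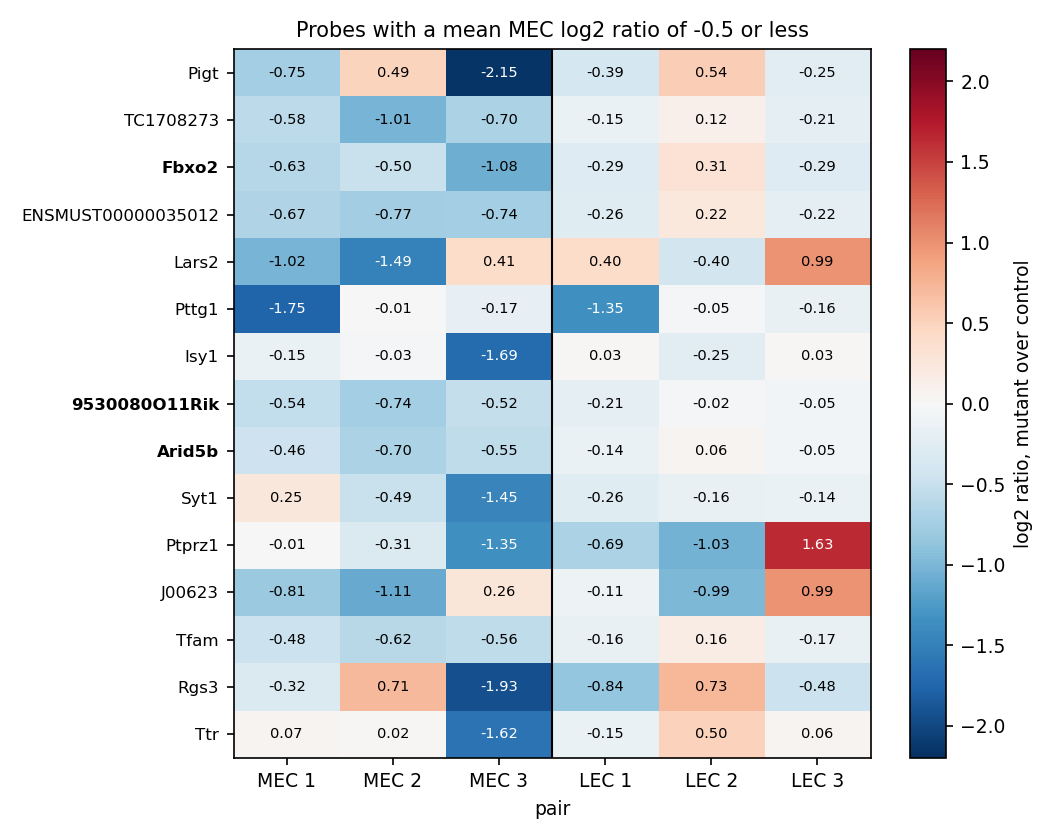
Log2 ratio of mutant over control in each MEC and LEC pair for the 15 probes with a mean MEC ratio of −0.5 or less, ordered by that mean, with Arid5b, 9530080O11Rik and Fbxo2 in bold. Arid5b, 9530080O11Rik, Tfam, ENSMUST00000035012 and TC1708273 have like values in the 3 MEC pairs, while Pigt, Pttg1, Isy1, Syt1, Ptprz1, Rgs3 and Ttr have 1 MEC pair far below the others.

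Over the 6 pair ratios, the likeness of Arid5b and 9530080O11Rik, as an uncentred correlation (cosine) that does not depend on the direction given to replicate 2, was 0.99. It was 0.89 between Arid5b and Fbxo2 and 0.86 between 9530080O11Rik and Fbxo2. These values describe probes that share the same 12 arrays and were chosen for like MEC ratios. Among 3009 other genes with a root mean square ratio of at least 0.2, the genes most like Arid5b were the unnamed transcripts ENSMUST00000072306 (cosine 0.997) and TC1708273 (0.992), and Tfam (0.985). The same 3 genes were most like 9530080O11Rik, at 0.996, 0.982 and 0.971. Fbxo2 was most like Ndufa7, a subunit of respiratory complex I (0.959), Polr2g, a subunit of RNA polymerase II (0.954), and ENSMUST00000035012 (0.950). Of the 3009, 10 were above a cosine of 0.9 with Arid5b, 10 with 9530080O11Rik and 11 with Fbxo2. TC1708273 had the larger MEC mean, −0.76, against −0.32 for ENSMUST00000072306, and their LEC means were −0.08 and −0.04.

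Probes of the same gene were then compared over the array. For 1828 genes with 2 or more kept probes, the MEC mean of 2089 other probes differed from that of the gene's brightest probe by a median of 0.064, with a 95th percentile of 0.24. The difference was 0.77 for Fbxo2 A_52_P36190 and 0.67 for Fbxo2 A_51_P114472, larger than for 99.9% of these probes, and 0.36 for Arid5b A_52_P432580, larger than for 98.8%. Choosing genes by the ratio of 1 probe favours such differences, so these percentiles are a description. The Arid5b difference also depended on the signals used. With the scanner's processed signals the MEC means were −0.66 at A_51_P391524 and −0.49 at A_52_P432580. For Fbxo2 they were −0.63 at the brightest probe, −0.09 at A_51_P114472 and 0.04 at A_52_P36190. With replicate 2 turned as labelled, the differences were 0.27 and 0.40 for the Fbxo2 probes A_52_P36190 and A_51_P114472 and 0.13 for Arid5b, at percentiles 87.9, 95.2 and 59.5; the median over all was then 0.10 and the 95th percentile 0.40. The genes of the 15 lowest MEC probes had 9 other kept probes, 3 of them of Arid5b and Fbxo2. None of the 9 reached −0.25, 4 were under 0, and their median was 0.015. In all, 55.7% of the 2089 other probes had the sign of the brightest probe.

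**Figure D4:**
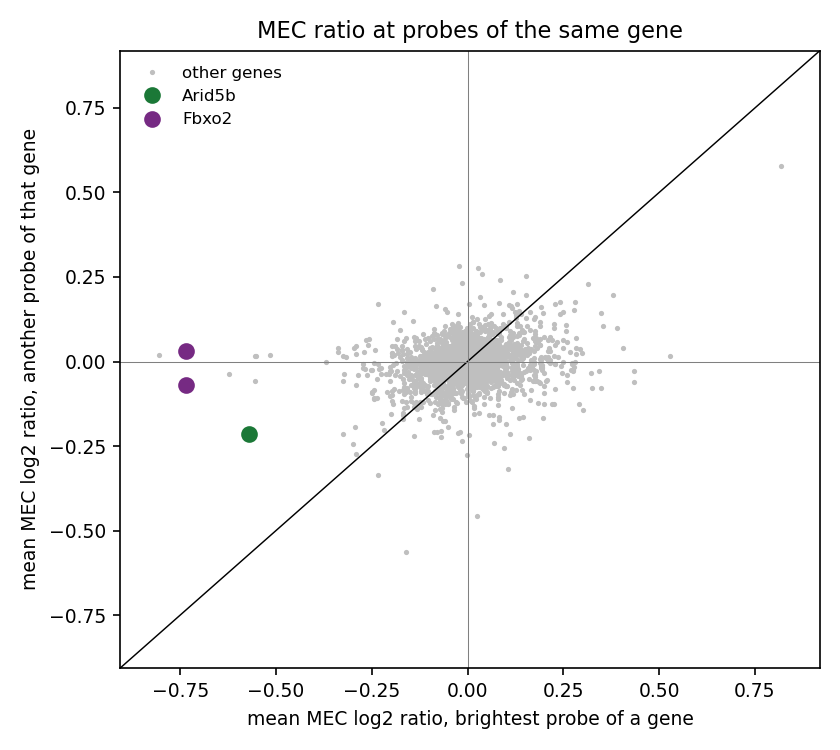
Mean MEC log2 ratio of the brightest kept probe of a gene (x axis) and of another kept probe of that gene (y axis) for 2089 other probes, with a line of equal values. Both Fbxo2 points lie at −0.74 on the x axis and near 0 on the y axis, and the Arid5b point lies at −0.57 and −0.21.

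The level, the mean log2 intensity of both dyes, is another measure than the ratio, and was compared between MEC and LEC. It is made from the same mutant and control channels as the ratio. The choice of genes on the MEC ratio may therefore bear on the levels and their p-values. Arid5b at A_51_P391524 averaged 9.26 ± 0.12 in MEC and 8.71 ± 0.11 in LEC (SD, n = 3 pairs each), and was higher in MEC by 0.55 (limma SE 0.076, adjusted p = 0.0026). Its lowest MEC pair, at 9.19, lay above its highest LEC pair, at 8.80. 9530080O11Rik averaged 9.61 ± 0.16 in MEC and 9.01 ± 0.11 in LEC (SD, n = 3 pairs each), and was higher in MEC by 0.61 (limma SE 0.089, adjusted p = 0.0031). Its groups did not overlap either, with pairs from 9.43 to 9.71 in MEC and from 8.92 to 9.13 in LEC. Fbxo2 at A_52_P580912 averaged 12.08 ± 0.19 in MEC and 11.68 ± 0.20 in LEC (SD, n = 3 pairs each), and was higher in MEC by 0.41 (limma SE 0.12, adjusted p = 0.042), with little room between the lowest MEC pair, at 11.93, and the highest LEC pair, at 11.90. That Fbxo2 call was lost, at adjusted p of 0.059 to 0.13, when any pair other than LEC replicate 1 was left out.

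The dimmer Fbxo2 probes gave the same direction of the level, 0.39 at A_51_P114472 (limma adjusted p = 0.0015) and 0.19 at A_52_P36190 (limma adjusted p = 0.017). At A_52_P36190 it was lost, at adjusted p of 0.054 to 0.058, without MEC replicate 2, LEC replicate 1 or LEC replicate 2. The Arid5b probes differed in the sign of the level: A_52_P432580, on the BC082312 cDNA, averaged 6.87 ± 0.13 in MEC and 7.47 ± 0.18 in LEC (SD, n = 3 pairs each) and was lower in MEC, at −0.59 (limma SE 0.098, adjusted p = 0.0047). The level was thus called higher in MEC at 5 of the 6 kept probes and lower at 1, against 11% higher and 13.2% lower over all 12981 kept probes. Of the 15 probes with a mean MEC log2 ratio of −0.5 or less, 7 were called higher in MEC by level. The brightest probes of these 3 genes are among the 7. A higher level in MEC was thus not particular to these genes among the probes lowest in MEC.

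These directions held for intensities made alike in distribution between arrays. With arrays scaled to a common median, the level of A_51_P391524 of Arid5b was −0.04 (limma adjusted p = 0.81), that of 9530080O11Rik 0.02 (adjusted p = 0.88) and those of the 3 Fbxo2 probes −0.14, −0.01 and −0.11, so the sign of Arid5b and Fbxo2 turned, while A_52_P432580 stayed lower in MEC, at −0.98. That scaling moved the median of kept probes to −0.17, against −0.02 with equal distributions, and that of the 652 kept probes with a level of 9 or more to −0.62, against −0.03. Relative to the median of those 652 probes, the brightest probes of the 3 genes stood higher in MEC under both scalings, which was not tested. Arid5b A_51_P391524 stood on both sides of the bound of 9, at 9.26 in MEC and 8.71 in LEC, so those 652 probes are not a close match for it. The other 3 kept probes have levels under 9 in both regions and were not set against that median.

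Mutant and control channels were also taken apart, a comparison that contains the ratio the genes were chosen on and is given with no test. Among mutant channels MEC exceeded LEC by 0.28 for Arid5b, 0.35 for 9530080O11Rik and 0.08 for Fbxo2 at A_52_P580912, and among control channels by 0.81, 0.86 and 0.73. The size of that split rests on the direction of replicate 2. Turned as labelled, mutant channels differed by 0.54, 0.59 and 0.35 and control channels by 0.56, 0.62 and 0.46. In the table's direction the Arid5b means were 8.97 in MEC mutants, 9.54 in MEC controls, 8.69 in LEC mutants and 8.73 in LEC controls, with overlap between the LEC groups alone. For 9530080O11Rik they were 9.31 in MEC mutants, 9.91 in MEC controls, 8.96 in LEC mutants and 9.05 in LEC controls, and the MEC mutants overlapped the LEC controls. For Fbxo2 the MEC controls, at 12.45, stood above the other groups, while the MEC mutants at 11.72 ± 0.08, the LEC mutants at 11.63 ± 0.14 and the LEC controls at 11.72 ± 0.35 lay within their spread of each other (SD, n = 3 each).

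**Figure D5:**
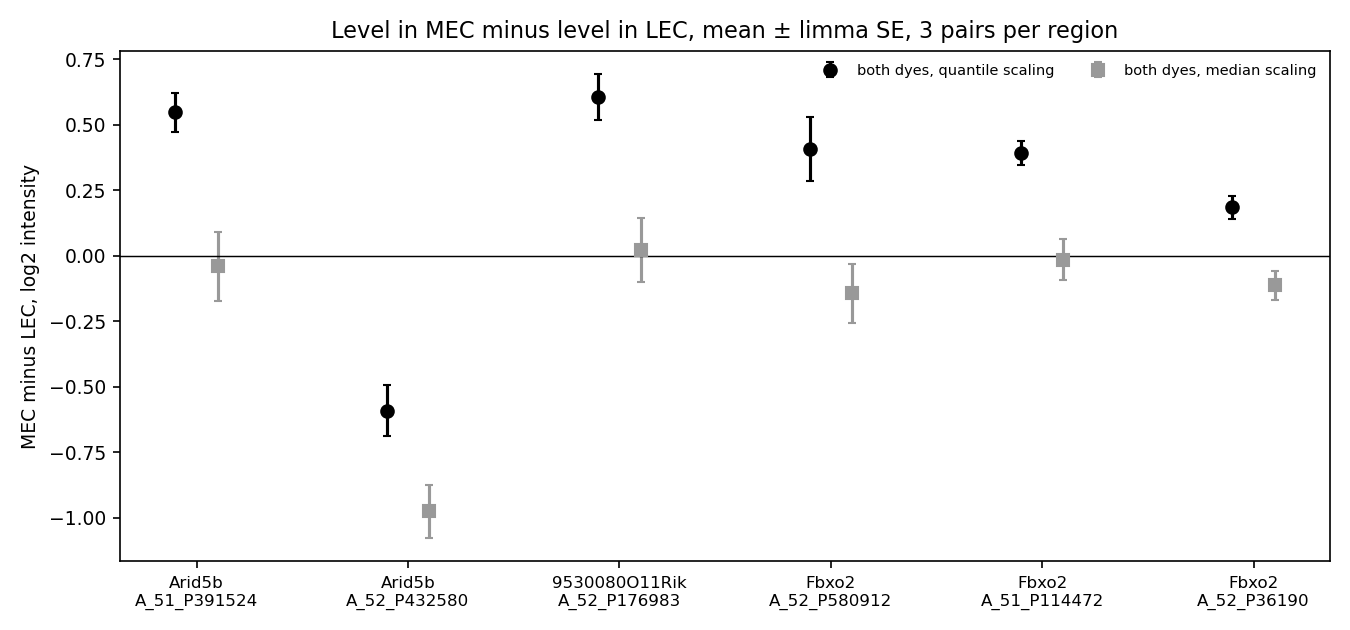
MEC minus LEC difference in log2 intensity (y axis) for the 6 kept probes, as the mean of both dyes with limma's standard error over 3 pairs per region, with equal distributions between arrays and with median scaling. With equal distributions 5 probes lie above 0 and Arid5b A_52_P432580 at −0.59, and with median scaling only 9530080O11Rik stays above 0, at 0.02.

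The partners of Fbxo2 were examined next. Of 9 genes on the array for the SCF core and its regulators, 8 were measured, with a median ratio of −0.05 in MEC and −0.01 in LEC, against −0.004 and 0.005 over all 10892 genes. None was called by limma in either region (0% of all probes were), and 6 were under 0 in each. Skp1, the adaptor that binds the F-box, had an MEC ratio of −0.09 ± 0.09, and Rbx1, the RING subunit, −0.05 ± 0.23 (SD, n = 3 each). Cand1, which exchanges F-box proteins on the scaffold, had −0.05, Nedd8, which activates it, −0.06, its conjugating enzyme Ube2m −0.01 and the signalosome subunit Cops5, which removes it, 0.01. The ubiquitin-conjugating enzymes Cdc34 and Ube2d3 had −0.06 and 0.03. By level, Cops5 (0.41), Rbx1 (0.34) and Skp1 (0.25) were higher in MEC, and Cdc34 (−0.29) was lower (limma adjusted p under the threshold of 0.05 for these 4), against 11% called higher and 13.2% lower over all kept probes.

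Of 5 F-box proteins that share the glycan-binding domain, 2 besides Fbxo2 were measured. Fbxo6, which neighbours Fbxo2 on chromosome 4, had MEC ratios of 0.03, 0.37 and −0.15 and LEC ratios of 0.16, −0.08 and 0.29. Fbxo27 had a mean of −0.02 ± 0.15 in MEC and 0.14 ± 0.07 in LEC (SD, n = 3 each). Neither was called by limma, and Fbxo6 was lower in MEC by level, at −0.42 (limma adjusted p = 0.0028), opposite to Fbxo2. In the pathway that Fbxo2 serves, degradation of glycoproteins from the endoplasmic reticulum, 21 of 25 genes were measured, with a median of 0.02 in MEC and 0.04 in LEC, 8 and 6 of them under 0, and none called; by level 3 were called higher in MEC and 2 lower, against 11% and 13.2% over all kept probes. The lectin chaperone Calr had the lowest MEC mean, −0.23 ± 0.26, followed by Nploc4, a cofactor of the Vcp ATPase, at −0.11 ± 0.15. Canx, at 0.17 ± 0.27, and Vcp, at 0.14 ± 0.66, had the highest (SD, n = 3 each). Of 6 reported substrates of Fbxo2, 3 were measured, and App, Bace1 and Grin1 had MEC means of −0.05, 0.04 and −0.02, none called. Transcript ratios say nothing of their protein.

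Of 15 genes on the array for the ARID family and Phf2, 9 besides Arid5b were measured, with a median of −0.01 in both regions, 6 under 0 in MEC and 5 in LEC, and none called by limma. Arid1b, a subunit of the BAF chromatin remodelling complex, had the lowest MEC mean, −0.13 ± 0.11, and Arid2, of the related PBAF complex, the highest, 0.19 ± 0.16 (SD, n = 3 each). Arid3b stood at −0.10 with MEC ratios of −0.07, −0.13 and −0.10. Kdm5c and Kdm5a, demethylases of histone H3, had −0.12 and 0.09, Jarid2 had 0.06, Arid3a −0.06, Arid4a −0.01 and Arid1a −3.8e-05. By level Arid1b alone was called among these 9, lower in MEC at −0.33, against 13.2% called lower over all kept probes.

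The measured neighbours of the 3 genes gave a further comparison. Of the 3 nearest annotated genes on each side, Rtkn2 was measured beside Arid5b, Hook1 beside 9530080O11Rik, and Fbxo6 and Disp3 beside Fbxo2. Hook1, which links vesicles to microtubules, had MEC ratios of −0.10, −0.11 and −0.02. Rtkn2 had 0.03, −0.20 and −0.17, and the Fbxo2 neighbour Disp3 averaged −0.01. None of these 4 was called by limma in MEC or LEC, and Rtkn2 (0.25) and Hook1 (0.26) were higher in MEC by level (limma adjusted p under 0.05), as were 11% of all kept probes.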

How the data were processed

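Dual-dye arrays of laser-captured MEC and LEC neurons were used, 12 in all. The deposited scanner files hold, per spot, raw mean and local background intensity and processed intensity from Agilent Feature Extraction (9.5.1.1 per the file headers, 8.5.1.1 per the submitters' processing notes). They also hold the deposited log10 ratio of Cy5 over Cy3, and 0 or 1 flags that carry no unit. A table of the authors' log2 ratios covers 41548 spots. Its column medians ran from −0.4 to 0.4, and neither how it was centred nor which way it runs is stated. Probe coordinates are of build mm8, per the file headers. Of 41174 probes, 23483 took a RefSeq name through an accession, 6678 through a current and 2887 through an older symbol.

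Each column of the value table was matched to an array over 9166 bright spots, with a size of r of at least 0.995 against at most 0.657 with any other array. The order of the columns equalled the scan order in 12 of 12 places. After subtraction of each spot's mean, dye-swapped arrays of a pair correlated at −0.48 to −0.78 with this assignment. Assigned by file name, LEC pairs gave 0.01, −0.10 and −0.29. This assignment was made with the values in view.

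In R 4.3.3 with limma 3.58.1, background was corrected by normexp (offset 50), dyes were balanced by loess, and the mutant over control log2 ratio of a pair was the mean of its 2 arrays. The unit is the pair mean, 3 per region. Whether same-numbered MEC and LEC pairs share mice is not in the labels, and p-values measure the spread between these samples. Levels were quantile-normalised (Aquantile). P-values are two-sided and Benjamini-Hochberg adjusted over all kept probes, with a threshold of 0.05. On simulated ratios at 12981 probes, 200 were given a change. The MEC test recovered 63% of changes of −0.5 and 95% of changes of −1, with 14 false calls at each size. In the data the same test called 0 probes in MEC, and Lyz2, at an MEC mean of 1.78, had a limma adjusted p of 0.42. The simulated recovery may therefore not hold for these data. The number of arrays limits the precision.

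The genes, the lists and the rule for naming were chosen with earlier results of these data known. Named are the 3 genes, the 3 genes most like each by cosine, the measured neighbours except 1 that is not reported here, the measured F-box, SCF and ARID genes, and the extremes of the longer lists. The 15 lowest MEC probes and those named from them were chosen after their values were seen. Alternatives changed the direction of replicate 2, the file assignment, the signals used, the filter, the scaling, the unit of replication and the pairs included.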

Additional observations from a re-analysis of the deposited data

Results flagged for a closer look

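The dim 9530080O11Rik probe A_51_P411045 had MEC log2 ratios of 0.07, 0.06 and 0.01 and LEC log2 ratios of −0.02, −0.05 and −0.04. Every MEC pair thus lay above 0 and every LEC pair below it, and the MEC mean exceeded the LEC mean by 0.0836. The difference was not tested, and 0 of its 24 readings stood well above background. With replicate 2 turned as labelled, its MEC mean was 0.01 and its LEC mean −0.003. Groups of 3 pairs are too small for the check on a sample far from the others.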

How the results depend on the processing

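The MEC means of the brightest probes of Arid5b, Fbxo2 and 9530080O11Rik stayed under 0 in each of the 10 other settings tried, from −0.66 to −0.11 for Arid5b, −0.86 to −0.40 for Fbxo2 and −0.65 to −0.11 for 9530080O11Rik; the values nearest 0 came with replicate 2 turned as labelled. Leaving out 1 pair gave −0.63 to −0.51, −0.86 to −0.56 and −0.64 to −0.53. With 12 arrays as units and the pair as a random block, limma called 5 probes in MEC and 1 in LEC; 2 of the 5 were probes of Arid5b and 9530080O11Rik, which is no test of them, since they were chosen on these ratios. Leaving out 1 pair gave 0 to 1 calls in MEC, the 1 being Lyz2 without LEC replicate 2, and 0 in LEC. The remaining settings called 0 in both regions. The 3152 level calls became 6748 with median scaling, 458 from mutant channels alone (an alternative added after seeing the data), 620 from control channels alone, and 1974 to 2898 with 1 pair left out, the fewest without MEC replicate 1 (1974) and without LEC replicate 2 (2013). Median scaling turned the level to −0.039 for Arid5b A_51_P391524 and to −0.14, −0.014 and −0.11 for the Fbxo2 probes A_52_P580912, A_51_P114472 and A_52_P36190; the cause was not tested. The level of Fbxo2 A_52_P580912 kept its direction but missed the threshold in 9 of 15 alternatives, for example at an adjusted p of 0.11 without MEC replicate 3 and 0.13 without LEC replicate 2. Same-numbered MEC and LEC pairs did not deviate together (correlations from −0.35 to 0.01), so they were not treated as pairs, which leaves unsaid whether they share mice. With the replicate block, 2772 level calls and 0 calls of the ratio difference were made, and the Fbxo2 level had an adjusted p of 0.053. Dim probes limit the rest: 5 of the 11 probes were under the filter.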
